A study of Mus musculus with 3 samples.

Results

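The dual-specificity MAP kinase phosphatases described here are Dusp1, Dusp2, Dusp4, Dusp5, Dusp6, Dusp8, Dusp10, Dusp14 and Dusp16. They are taken by gene name and make up 9 of the 36870 gene names on the arrays. They are read by 16 of the 56605 probes, of which 13 were well above background on all 3 arrays.

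Mitogen-activated protein (MAP) kinases such as ERK, JNK and p38 carry the signal from Toll-like receptors to the genes of the inflammatory response, and they are active while a threonine and a tyrosine of their activation loop are both phosphorylated. The dual-specificity phosphatases remove both phosphates. Many of their genes are themselves switched on by the kinases they turn off, so that in macrophages they act as a feedback brake whose members differ in preferred kinase and in place, nucleus or cytoplasm.

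RNA was taken from RAW264.7 cells, a mouse macrophage line, in 3 conditions with 1 array each: LPS alone, LOC1 before LPS, and LOC3 before LPS. LPS, which activates TLR4, was given for 3 h in each condition, while LOC1 and LOC3 are Lactiplantibacillus plantarum strains from tea leaves that were present for 12 h beforehand by the labels and for longer by the methods. The comparison asks how the macrophage response to TLR4 activation differs after either strain. Unchallenged macrophages enter only through the log2 ratios deposited by the authors, because their array is not analysed here, and no condition held a strain without LPS, so an effect of a strain by itself and an effect on the LPS response cannot be told apart.

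With 1 array per condition, no SD between cultures, test or p-value can be given. Differences are log2 intensities relative to the 75th percentile of each array, and a difference of at least 2-fold, 1 on the log2 scale, is the threshold used below for "rose" and "fell". The scanner software's own error estimate gives an SE of 0.20 to 0.21 on the log2 scale for the difference from LPS of a probe well above background on both arrays, apart from the dim Dusp14 probe at 0.32. Probes printed 10 times on each array give a smaller SD, 0.05, for bright probes. For dim ones, on average more than 1 log2 unit under the 75th percentile, it was larger, 0.29 to 0.34, from 9 probes. Dusp16 probe A_52_P374825 counts as dim here. Both describe the spot and not the culture. In RNA from a whole culture, fewer expressing cells and less RNA per cell cannot be told apart.

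The 75th percentile lay at an intensity of 367 with LPS, 332 after LOC1 and 334 after LOC3, and no spot was saturated. All 3 arrays lay on 1 slide. Of 7 macrophage markers, 6 were well above background on every array, and Mrc1 was so with LPS alone. Of 15 markers of T cells, B cells, epithelium, fibroblasts and endothelium, 8 were well above background on every array and 5 on none, with summed intensities of 1157 to 1295 for the T cell markers and at most 159 for each other type. Before scaling, the macrophage markers summed to 455594 with LPS, 361443 after LOC1 and 391662 after LOC3. Lyz2 was the largest part of each sum, at 244528, 185159 and 211178. After scaling the markers were split. With LOC1 against LPS, Adgre1 was at 0.60, Cd68 at 0.33 and Cd14 at 0.09, but Csf1r at -0.85, Itgam at -0.51 and Lyz2 at -0.26. Mrc1 was lower too, and each marker had the same sign with LOC3. Whether these shifts have a part in the differences below was not tested. Actb was at 0.07 with LOC1 and 0.12 with LOC3 against LPS, and Gapdh at 0.30 and 0.34.

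The DNA just upstream of 8 of the 9 genes was taken from RefSeq (build GRCm38.p6), 250 bases before each start. Dusp4 has no entry. The stretches below are shown because they hold the sites at which stimulus-responsive factors are known to bind, and the capitals mark the matches. In Dusp1 and Dusp8 these are the full cAMP response element TGACGTCA, in Dusp1 and Dusp2 the E-box CACGTG, and in Dusp5 a pair of adjoining CArG boxes, to which serum response factor binds, together with TGACG, the core of the response element, read on the other strand.
Dusp1, chr17:26508573-26508632, minus strand: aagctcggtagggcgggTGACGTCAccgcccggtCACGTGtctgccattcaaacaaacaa
Dusp2, chr2:127336029-127336068, plus strand: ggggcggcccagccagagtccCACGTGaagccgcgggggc
Dusp5, chr19:53529045-53529104, plus strand: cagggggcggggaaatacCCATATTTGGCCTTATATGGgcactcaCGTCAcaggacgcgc
Dusp8, chr7:142095325-142095404, minus strand: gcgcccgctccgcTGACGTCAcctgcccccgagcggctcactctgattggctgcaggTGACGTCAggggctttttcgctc

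Both strands were searched for every site except the NF-kB consensus, which was searched only on the strand of the gene. The full element TGACGTCA was found in 2 of the 8 stretches, Dusp1 once and Dusp8 at 2 places, against 1.55% of 32851 promoters of the same length. Its core TGACG, which every full element contains, was in 4 of 8, Dusp1, Dusp5, Dusp8 and Dusp16, against 17.8% of all promoters. The E-box was in 2 of 8 against 6.02%, and the CArG box in Dusp5 alone against 1.47%. Neither the AP-1 site TGANTCA (6.75% of all promoters) nor, on that strand, the NF-kB consensus (5.0%) was found in any of the 8. This says only that these letters are not in this window as searched, and NF-kB matches on the other strand were not counted. A match is a run of letters and no binding was measured.

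The probes on which the differences turn are those of Dusp10, Dusp4 and Dusp16. Their first 30 bases are given in lower case, because the probes of Dusp16 gave different values. The position of the whole probe is in mouse build mm9, from the array files.
Dusp10, probe A_51_P104418, chr1:185898608-185898667, plus strand: gactctatttttaataagtgtaagaagact
Dusp4, probe A_51_P518051, chr8:35882045-35882104, plus strand: aataacggcggtttccgctgccagagaaga
Dusp4, probe A_51_P347333, chr8:35884806-35884865, plus strand: tcaagggacttcagtaagataacaatgcaa
Dusp16, probe A_51_P242634, chr6:134665656-134665696, minus strand: gtacaaaatggtgattttgagcaaaactag
Dusp16, probe A_66_P116252, chr6:134665783-134665842, minus strand: ctgtcagtccttcgtcactaatgtcgtatc
Dusp16, probe A_52_P374825, chr6:134687549-134687608, minus strand: ggctcttagccagaataatgacttaagttt

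When LPS-challenged macrophages were set against unchallenged cells, most of these phosphatases were among the listed genes. Dusp1, Dusp2, Dusp5, Dusp8 and Dusp16 rose, Dusp6 fell, a dim probe of Dusp14 was listed as lower, no LPS ratio is listed for Dusp10 and no ratio at all for Dusp4. That is 5 genes listed as higher and 2 as lower of 9, where 9.7% of all gene names had a probe listed as higher with LPS and 8.66% one listed as lower. These shares include gene names never well above background, while 8 of the 9 phosphatases were so on all 3 arrays, so the 2 are not alike. A ratio is listed only where it is at least 2-fold.

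The highest ratios were those of Dusp2, Dusp5 and Dusp1, all early-response genes of nuclear phosphatases. Dusp2, a nuclear phosphatase of ERK and p38 that is abundant in activated leukocytes, had a deposited log2 ratio of 5.34 with LPS, which is 40.6-fold. Dusp5, a nuclear phosphatase of ERK, had 3.41 by its brighter probe, 10.6-fold, and 3.86 by the dimmer one, whose implied intensity in unchallenged cells, 16.7, was barely above the detection floor of the LPS array, 16.3, the faintest signal there that still counts as well above background. Dusp1, the nuclear phosphatase of p38 and JNK that limits cytokine production after LPS, had 3.14, which is 8.79-fold.

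Dusp16, Dusp8 and Dusp10, which prefer JNK and p38, had lower ratios than Dusp1, Dusp2 and Dusp5. Dusp16 had 1.85, 1.83 and 1.86 by its 3 probes, which are 3.60-fold, 3.56-fold and 3.63-fold. Dusp8 had 1.20, a 2.30-fold rise, by 1 of its 2 probes, and the other is not listed. Dusp10 has a blank LPS cell, and its ratio rebuilt from the intensities and the other columns was 0.77, under 2-fold.

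Dusp6, the cytoplasmic phosphatase of ERK, went the other way, at -1.55, which is 2.92-fold lower than in unchallenged cells. Its implied intensity there was 14142, against 4839 with LPS. For Dusp14, a small phosphatase without the kinase-docking domain of the others, 1 of 3 probes was listed at -1.67, but its intensity with LPS, 8.52, was not well above background, so the ratio allows only at least 1.67-fold lower.

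**Figure D1:**
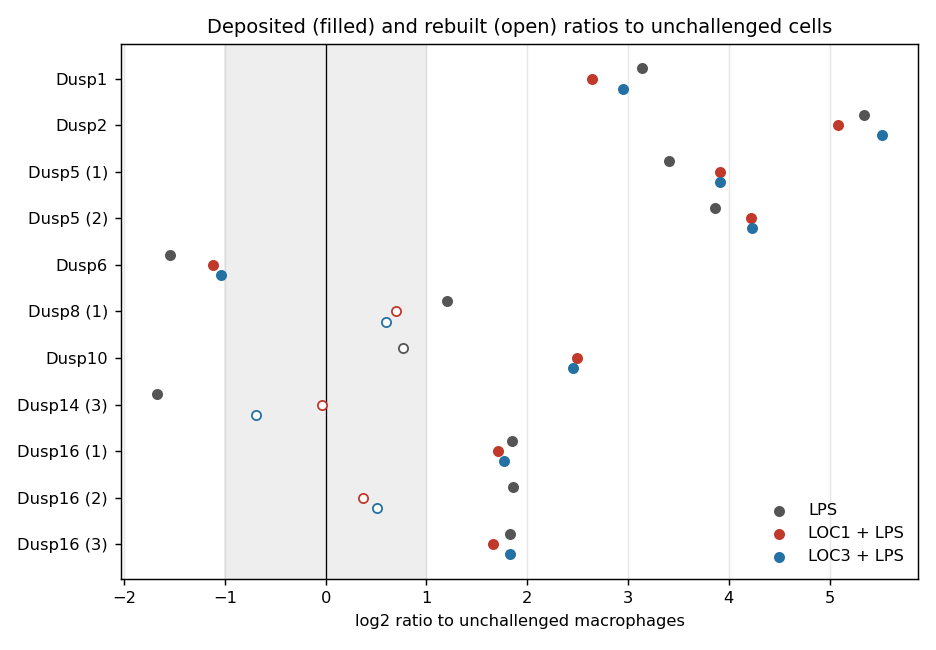
Log2 ratio of each listed probe to unchallenged macrophages (x axis) with LPS, LOC1 + LPS and LOC3 + LPS; filled points are deposited values, open points are values rebuilt from the intensities because the cell was blank, and the shaded band lies under 2-fold. Of genes with several probes, number 1 is the brightest. Dusp2, Dusp5 and Dusp1 lie farthest to the right. To the left with LPS are Dusp6, at -1.55, and a dim Dusp14 probe not well above background there, at -1.67. Dusp10 lies inside the band with LPS and at 2.49 and 2.46 with the strains.

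The same table gives each strain's ratio to unchallenged cells. Dusp2 was at 5.09 with LOC1 and 5.52 with LOC3, Dusp5 at 3.92 and 3.91 by its brighter probe, and Dusp1 at 2.65 and 2.95. Dusp6 remained past 2-fold below unchallenged cells, at -1.11 and -1.04. Dusp10 was listed at 2.49 with LOC1 and 2.46 with LOC3, 5.63-fold and 5.49-fold above unchallenged cells. Dusp8 has blank cells with both strains, rebuilt at 0.70 and 0.60. These ratios share 1 array of unchallenged cells, and below the 3 LPS-challenged arrays are set directly against each other.

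With LOC1 before LPS, 2 of the 9 phosphatases rose against LPS alone, Dusp10 and Dusp4, and 0 fell. Over all 20031 genes compared, 2.72% rose and 3.54% fell. With LOC3 1 of 9 rose, Dusp10, and 0 fell, where 3.24% of 19812 genes rose and 2.94% fell. The median difference of the 9 was 0.05 with LOC1 and 0.18 with LOC3, beside 0.03 and 0.07 over all genes. Both comparisons use the same LPS array.

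Dusp10, which turns off p38 and JNK, showed the largest difference of the 9 with both strains. Its probe had an intensity of 115 with LPS, 344 after LOC1 and 336 after LOC3. The LPS array was low, and the strains were near each other. The log2 difference from LPS was 1.73 with LOC1 (SE 0.21 from spot error), 3.31-fold, and 1.69 with LOC3 (SE 0.21), 3.22-fold. Of all genes, 154 stood higher than Dusp10 with LOC1 and 241 with LOC3. A single probe reads this gene.

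Dusp4, a nuclear phosphatase of ERK and JNK, was higher with both strains by both probes. It lay at the threshold with LOC1 and short of it with LOC3. The brighter probe had an intensity of 3217 with LPS, 5878 after LOC1 and 5040 after LOC3, and the other, 2701 bases away, had 2776, 4912 and 4661. On each probe the LPS array was the lowest. The differences of the brighter probe were 1.01 with LOC1, 2.02-fold, and 0.79 with LOC3, 1.72-fold, each with an SE of 0.20 from spot error, and those of the other were 0.97 and 0.89. The call with LOC1 was lost under 5 of the 9 other ways of processing that give Dusp4 a value, which put it at 0.94 to 0.99, and the other 4 put it at 1.01 to 1.20.

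The remaining nuclear phosphatases lay under 2-fold with either strain. Dusp1 had an intensity of 25246 with LPS, 16239 after LOC1 and 20072 after LOC3, differences of -0.49 and -0.19. Dusp2 had 40969, 30994 and 42077, differences of -0.26 with LOC1 and 0.18 with LOC3, so that LOC1 lay below LPS and LOC3 slightly above it, or level with it under quantile normalization. Dusp5 had 3850, 4946 and 4955 by its brighter probe, differences of 0.51 and 0.50, and 0.35 and 0.37 by the dimmer one. The SE from spot error was 0.20 to 0.21 for each of these differences.

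The ERK phosphatase of the cytoplasm, Dusp6, had an intensity of 4839 with LPS, 5907 after LOC1 and 6249 after LOC3. Both strains lay above LPS, at 0.43 and 0.51. Of the phosphatases of JNK and p38, Dusp8 had 448, 286 and 268 by its brighter probe and 333, 220 and 245 by the other. Both strains lay below LPS on both probes, at -0.50 and -0.60 on the brighter and -0.46 and -0.31 on the other. All of these lay under 2-fold.

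**Figure D2:**
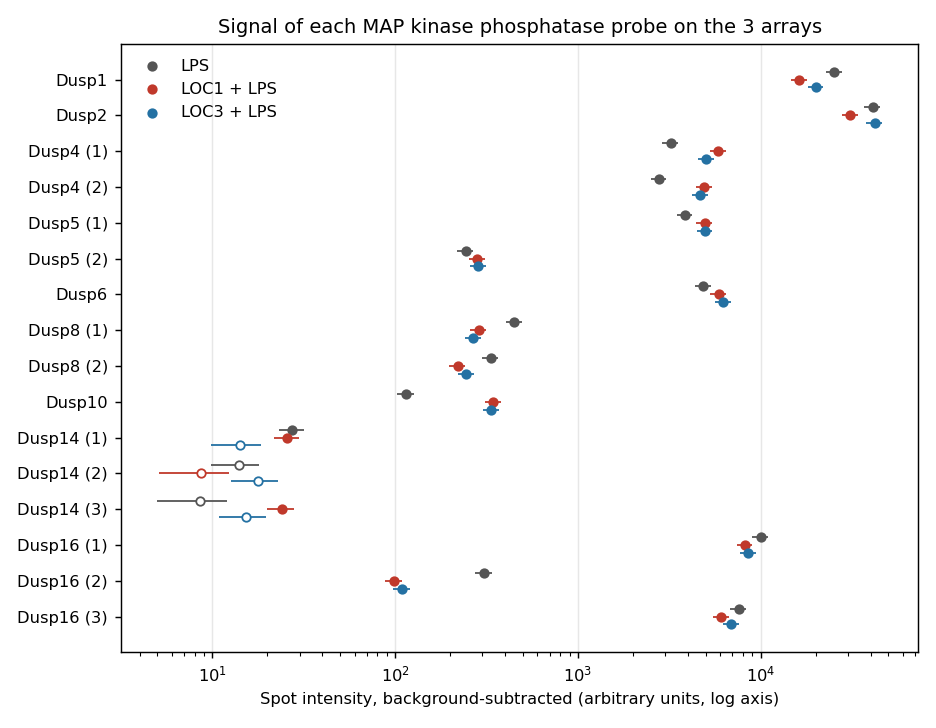
Background-subtracted intensity of each of the 16 probes (log x axis, arbitrary units) on the LPS, LOC1 + LPS and LOC3 + LPS arrays, with bars for the scanner software's error estimate of the spot; open points were not well above background. Dusp10 goes from 115 to 344 and 336, and Dusp16 (2), probe A_52_P374825, from 306 to 98.6 and 109. Levels of different probes cannot be set against each other.

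The probes of Dusp16 disagreed. The brightest had an intensity of 10012 with LPS, 8206 after LOC1 and 8584 after LOC3, differences of -0.14 and -0.08. Probe A_66_P116252, 86 bases away on the genome, had 7586, 6092 and 6895, at -0.17 and 0.00. By these probes the 3 arrays lay close together, and with the arrays scaled by their medians the brightest was at 0.05 and 0.08. As the mean of all its detected probes, including the one described next, Dusp16 was at -0.60 with LOC1 and -0.48 with LOC3.

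The remaining Dusp16 probe, A_52_P374825, lies 21706 bases from A_66_P116252 and was designed to another transcript of the gene. It had an intensity of 306 with LPS, 98.6 after LOC1 and 109 after LOC3, and was well above background on each. It fell by 1.49 with LOC1, 2.81-fold, and by 1.35 with LOC3, 2.55-fold, with an SE of 0.21 from spot error. At probe level, 4.03% of 30387 probes fell with LOC1 and 3.54% of 30041 with LOC3. Of 769 genes with at least 3 probes well above background whose brightest probe was within 0.2 of LPS with both strains, 39 also had another probe that fell 2-fold with both, 5.07%. In the deposited table this probe stands at 1.86 with LPS and is blank with both strains, rebuilt at 0.37 and 0.51.

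Dusp14 was at the limit of detection. Its brightest probe had an intensity of 27.4 with LPS, 25.6 after LOC1 and 14.2 after LOC3, the last not well above background. The difference with LOC1 was 0.05 (SE 0.32 from spot error), and LOC3 was at least 1.25-fold lower than LPS. Of the other 2 probes, one was well above background on no array and the other with LOC1 only, at 23.9, which is at least 1.62-fold higher than LPS. A bound sets the dim side at the detection floor of its array.

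**Figure D3:**
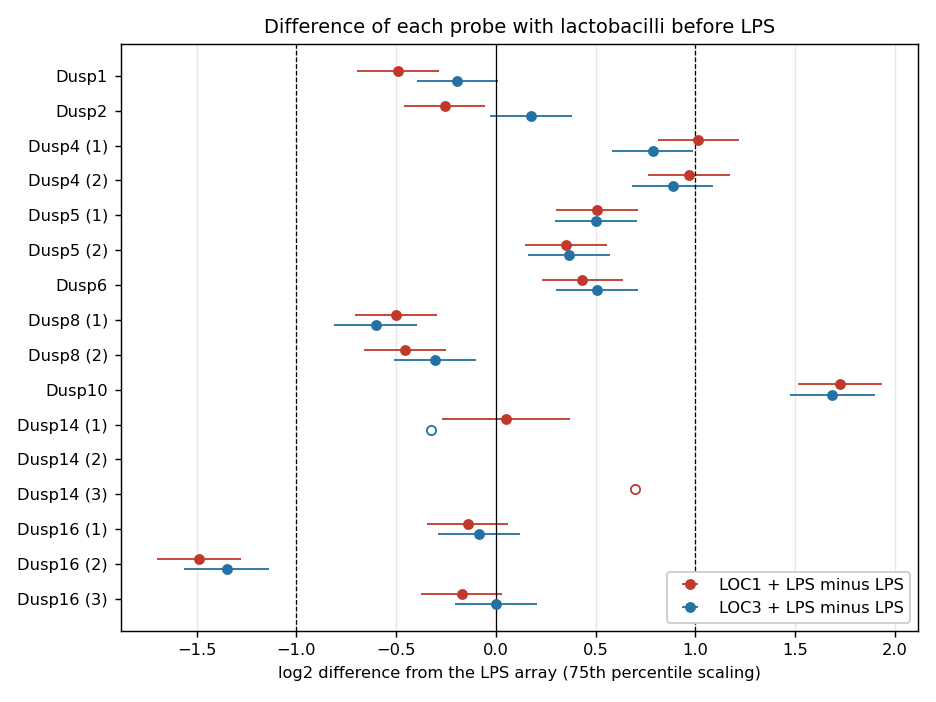
Log2 difference from the LPS array of each probe with LOC1 + LPS and LOC3 + LPS; bars are 1 SE from the scanner software's spot error, open points are bounds, and dashed lines mark 2-fold. Dusp10 is past the right line with both strains, and the 2 Dusp4 probes lie at it with LOC1 and short of it with LOC3. Only Dusp16 (2), probe A_52_P374825, is past the left line. Dusp14 (2) was well above background on no array and has no point.

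Between LOC1 and LOC3 none of the 9 phosphatases passed 2-fold, where 0.804% of 19398 genes rose with LOC1 over LOC3 and 1.89% fell. The measured differences, LOC1 minus LOC3, ran from -0.43 for Dusp2 to 0.23 for Dusp4, with Dusp1 at -0.30 and Dusp10 at 0.04. The SE of each from spot error was 0.20 to 0.21. The median of the 9 was 0.00, beside -0.02 over all genes. Over all genes the quartiles were -0.10 and 0.08. Dusp2 stood above 5.19% of genes, Dusp1 above 8.18% and Dusp4 above 90.7%. The other measured phosphatases stood above 32.0% to 79.0%. For Dusp14 only a bound can be given, at least 1.30-fold higher with LOC1.

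**Figure D4:**
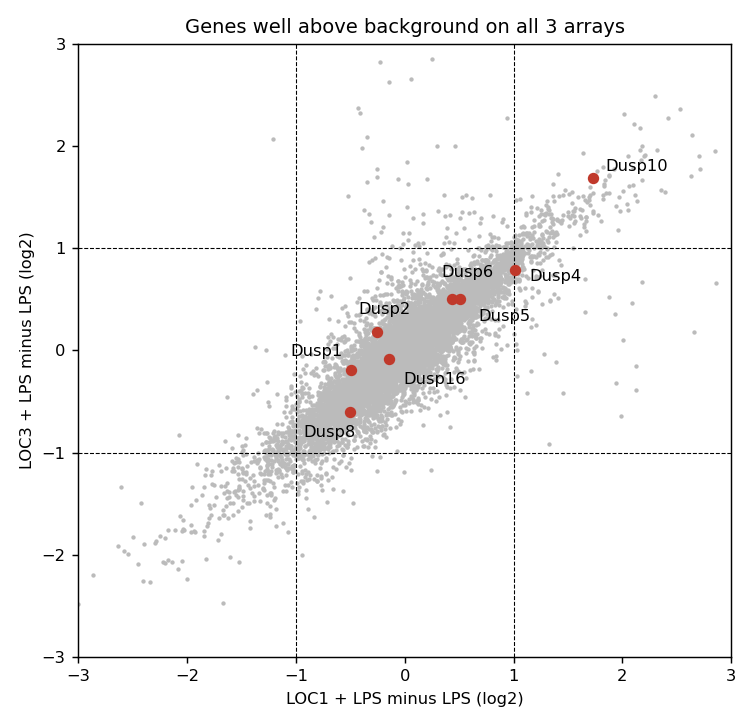
Log2 difference from LPS with LOC1 (x axis) and LOC3 (y axis) for the 17400 genes detected well above background on every array, with the 8 phosphatases among them in red and dashed lines at 2-fold; 20 genes lie outside the axes. Both axes subtract the same LPS array. Dusp10, at 1.73 and 1.69, is the only one of the 8 past 2-fold on both.

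The genes whose pair of differences lay nearest to that of Dusp10, by Euclidean distance over LOC1 and LOC3 among 17399 other genes well above background on all 3 arrays, were Klra2 at 1.76 and 1.76 (distance 0.08), Fpr2 at 1.70 and 1.60 (0.09) and Asap3 at 1.84 and 1.67 (0.12). Klra2 encodes a lectin-like receptor and Fpr2 a receptor of formylated peptides. Only 2 genes lay within 0.1 of Dusp10. Around Dusp4 the plane was crowded, with 64 genes within 0.1, the nearest being 8430429K09Rik, Rgs3 and Ift81 at distances of 0.02 to 0.03.

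Most of the other genes of the MAP kinase pathway measured here lay under 2-fold. Of 72 genes in 8 lists, 61 could be compared between LOC1 and LPS and 61 between LOC3 and LPS. With LOC1 1 rose and 0 fell, where 2.72% of all genes rose and 3.54% fell, and with LOC3 0 rose and 0 fell, where 3.24% and 2.94% did. The median differences were 0.00 with LOC1 and -0.01 with LOC3, beside 0.03 and 0.07 over all genes.

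The gene that rose was Spry2, a Sprouty inhibitor that ERK signalling induces. Its brighter probe had an intensity of 1005 with LPS, 1930 after LOC1 and 1614 after LOC3, differences of 1.09 and 0.82. The other probe was at 0.41 and 0.23, and with the mean of detected probes 0 genes of its list passed 2-fold. The remaining feedback inhibitors that could be compared ranged from -0.36 for Spry1 to 0.69 for Spred2 with LOC1, 5 of 7 genes in all.

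The MAP kinase phosphatases outside the 9 were Dusp7 and Dusp9, both cytoplasmic phosphatases of ERK. Dusp7 had an intensity of 3912 with LPS, 1958 after LOC1 and 2132 after LOC3, differences of -0.85 and -0.74 under 2-fold. Dusp9 had 43.9, 47.1 and 49.8, at 0.25 and 0.32. Like Dusp6, both had fallen with LPS in the deposited ratios, to -1.06 for Dusp7 and -1.42 for Dusp9.

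In the other lists no gene passed 2-fold by its brightest probe, though 1 atypical phosphatase did with each strain under median scaling and 1 upstream kinase or partner did with LOC1 as the mean of detected probes. The genes named next were picked from the ends of the ranges after their values were seen. Of 14 atypical dual-specificity phosphatases 8 could be compared, up to 0.99 with each strain for Dusp28. The 5 comparable tyrosine and serine/threonine phosphatases lay between -0.06 and 0.36 with LOC1 and between -0.13 and 0.26 with LOC3. Of the MAP kinases 11 of 13 could be compared, the highest being Mapk7, which encodes ERK5, at 0.72 with LOC1 and 0.66 with LOC3. All 7 MAP kinase kinases could be compared and ranged, by their brightest probes, from -0.34 for Map2k3 to 0.29 for Map2k1 with LOC1. The lowest probe of Map2k3 was at -1.16 with LOC1, past 2-fold, and at -0.80 with LOC3.

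Upstream of them, the 13 kinases and partners ranged from -0.60 with LOC1 for Map3k8, the kinase that couples TLR4 to ERK, to 0.54 for Tab3. Map3k8 had an intensity of 1251 with LPS, 748 after LOC1 and 838 after LOC3. The lowest probe of Map3k14 was at -0.68 with LOC1 and at -1.17 with LOC3, past 2-fold. Among the 10 kinases that MAP kinases activate, Rps6ka3 was lowest, at -0.84 with LOC1 and -0.79 with LOC3, and Mknk2 highest, at 0.80 and 0.71. By their brightest probes, Dusp10 stood above every one of the 61 other pathway genes compared with either strain, but a dim probe of Map3k4, well above background with LOC1 only, had a bound of 2.37 there, and one of Ptpn5, so with LOC3 only, a bound of 2.35.

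**Figure D5:**
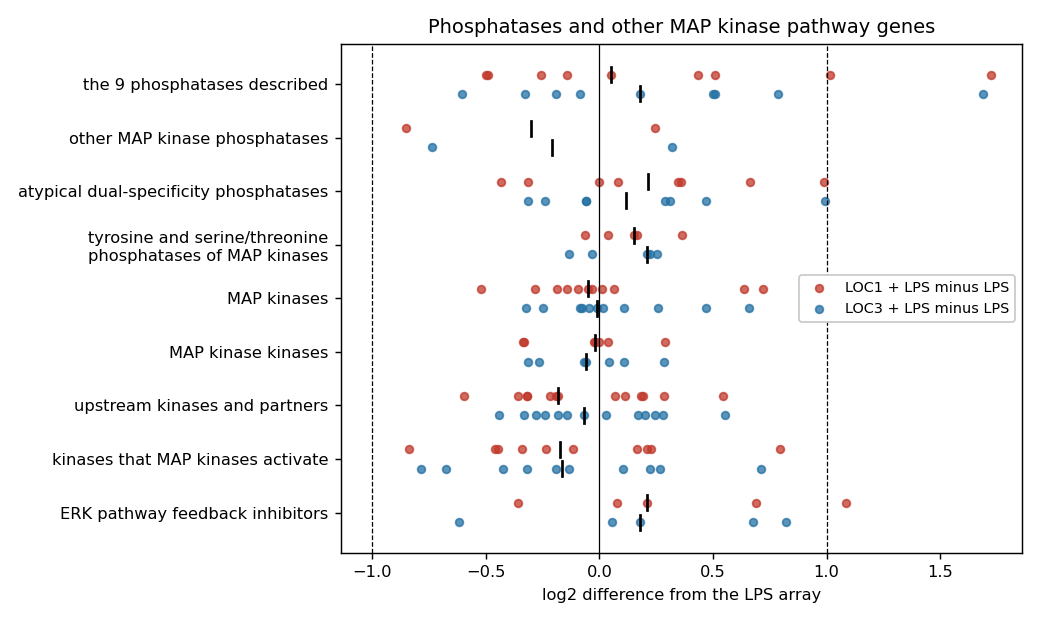
Log2 difference from the LPS array for the 9 phosphatases and for each list of MAP kinase pathway genes, 1 point per gene at its brightest probe, with LOC1 + LPS above and LOC3 + LPS below; black bars are medians and dashed lines mark 2-fold. Dusp10 lies at 1.73 and 1.69, and the only other points past 2-fold are Dusp4 and Spry2 with LOC1, at 1.01 and 1.09.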

How the data were processed

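RNA of RAW264.7 macrophages was hybridised to 1-colour Agilent mouse arrays, 1 per condition. The spot intensity was deposited by the authors as background-subtracted by Feature Extraction, version 12.0.3.1 in the file headers, with no normalization between arrays. The deposited log2 ratios to unchallenged cells were made by the authors in GeneSpring and are blank under 2-fold. In every probe listed for 2 arrays, their difference equalled that of the log2 intensities after a constant shift (0.15 for LOC1 and 0.14 for LOC3 against LPS) within 0.001, so blank cells could be rebuilt, and all 12931 rebuilt cells lay under 2-fold.

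Outlier spots were left out (118 to 135 per array), spots of a probe were averaged, and log2 intensities were taken relative to each array's 75th percentile over probes. Signals were well above background for 47.8% to 51.9% of probes. A gene was compared where its brightest probe was well above background on either array of the pair. The t-test of the methods cannot be run with 1 array per condition, and the number of arrays limits the precision. Members and lists were chosen with earlier results of these data known.

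By a rule, the text names the 9 phosphatases, Dusp7, Dusp9, Actb, Gapdh and listed pathway genes past 2-fold. The same rule gave the 3 genes nearest to each member that rose. Other pathway genes and the macrophage markers were named after their values were seen. Alternatives were median scaling, quantile normalization, the percentile over detected probes, normexp with offset 50, no filter, both arrays detected, the mean of detected probes, outliers kept, deposited ratios and a 1.5-fold threshold. The percentile over spots was added after seeing the data. Python 3.11.15, numpy 2.4.6, pandas 2.3.3, matplotlib 3.10.9, R 4.3.3 and limma 3.58.1 were used, and the scripts were tested on simulated data. All 9 symbols were found in RefSeq and 8 in its promoter table. The exon or UTR of a probe is not stated, since no annotation of mm9 was used here.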

Additional observations from a re-analysis of the deposited data

Results flagged for a closer look

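Dusp2 lay on opposite sides of the LPS array with the 2 strains, at a log2 difference of -0.26 after LOC1 and 0.18 after LOC3. The difference between the strains was not tested, since each has 1 array, and both values are under 2-fold with an SE of 0.20 from spot error. With quantile normalization the value with LOC3 was at 0.00 and just below LPS.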

How the results depend on the processing

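Dusp10 was past 2-fold with both strains under every alternative that gave it a value, at 1.27 to 1.91 with LOC1 and 1.25 to 1.85 with LOC3. The number of phosphatases that rose with LOC1 was 1 in place of 2, Dusp4 being the one lost, under quantile normalization, the percentile over detected probes, the percentile over spots, normexp and the mean of detected probes. At 1.5-fold, 2 rose and 1 fell with LOC3. The median of the 9 with LOC1, 0.05, was 0.24 under median scaling, 0.22 under quantile normalization, -0.024 with the percentile over detected probes, 0.12 under normexp, 0.37 with the mean of detected probes and -0.14 over the 5 genes with deposited ratios. With LOC3, 0.18 became 0.34 under median scaling, -0.0011 under quantile normalization, 0.095 with the percentile over detected probes and 0.34 over the 8 genes detected on both arrays. Between the strains it was -0.068 over 6 genes with deposited ratios. Of 257 values of single phosphatases under these alternatives, 62 moved by more than the SD of replicate spots and 7 changed sign, none of the 7 being over 0.08 in size afterwards, among them Dusp16 at 0.05 with LOC1 and 0.08 with LOC3 under median scaling. Of 240 counts of pathway lists past the threshold, 18 moved, 11 of them at 1.5-fold. Median scaling moved all genes up by 0.19 with LOC1 and 0.16 with LOC3.

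Over all genes, 545 rose and 710 fell with LOC1, 642 and 582 with LOC3, and 156 and 367 between LOC1 and LOC3. Median scaling gave 892 and 472 with LOC1 and 902 and 381 with LOC3, the percentile over detected probes 456 and 854, and 556 and 716, and normexp 223 and 200, 270 and 146, and 40 and 111 for the 3 comparisons. Without a filter the counts were 1463 and 2159, 1666 and 1893, and 1119 and 1537, and with both arrays detected 370 and 462, 332 and 378, and 37 and 69. With the deposited ratios, over fewer genes, they were 255 and 325, 256 and 298, and 150 and 165. Dim signals, as for Dusp14, limit what can be said. No paired analysis was possible because each condition has 1 array, and for the same reason no replicate could be left out. The cause of these moves was not tested.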

Other observations

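Of the 72 other pathway genes, 12 had a deposited LPS ratio for their brightest probe, 6 higher and 6 lower than in unchallenged cells. Higher were Map3k8, at 4.41, and Rps6ka2, Mapkapk2, Tnip2, Dusp11 and Map2k4. Lower were Map3k1, at -1.73, and Dusp9, Map3k5, Map3k14, Dusp3 and Dusp7. For the brightest probes of all genes, 7.64% were listed as higher and 6.3% as lower. Map3k8, the kinase upstream of ERK, was at -0.60 with LOC1 and -0.44 with LOC3 against LPS, under 2-fold, and its other probe fell by 1.11 with LOC1 and was at -0.94 with LOC3.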
